A study of Mus musculus with 6 samples.

Results

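The genes described here encode the enzymes that attach and remove ubiquitin and its relative ISG15. They were taken by symbol: every gene with a probe of a single symbol that begins with Uba and a digit (E1 activating enzymes), Ube2 (E2 conjugating enzymes), Herc and a digit (HERC ligases) or Usp and a digit (ubiquitin-specific proteases). This gave 99 of the 19935 genes tested, measured by 118 probes, with 4 in the E1 class, 35 in the E2 class, 5 in the HERC class and 55 in the USP class. A few match by name only: Usp6nl encodes an activator of Rab GTPases, Usp46os2 an antisense transcript, Ube2cbp a ligase, and Ube2v1 and Ube2v2 are E2 variants without a catalytic cysteine.

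The cells were peritoneal macrophages of C57BL/6 mice, that is, phagocytes of the abdominal cavity, kept in serum-containing medium and profiled on Affymetrix arrays. The 2 poly I:C samples had received 2 ug/mL poly I:C for 24 h, an artificial RNA duplex that TLR3 senses. The 2 PAM samples had received PAM, a TLR2 lipopeptide ligand, at 1 ug/mL for 24 h, and the labels describe 1 of them as PAMCSK3 and the other as PAMCSK4. The 2 control samples were untreated, and no culture time is given for them. The labels name no genetic change, no age or sex, and do not say whether the paired samples are different mice, cultures or only repeat arrays. The p-values therefore measure no more than the scatter between these arrays, which could be technical. The study asked which genes went up with TLR3 activation and down with TLR2 activation.

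Ubiquitin is passed along a relay. An E1 enzyme activates it at the cost of ATP, an E2 enzyme carries it, and an E3 ligase guides it onto a target protein, while deubiquitinases, of which the USP family is the largest, take it off again. ISG15 is a ubiquitin-like protein induced by interferon and has a relay of its own: Uba7 activates it, Ube2l6 carries it, Herc6 is its main ligase in the mouse, and Usp18 removes it. Usp18 also binds the type I interferon receptor and restrains its signalling, a role separate from its protease activity.

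Each deposited log2 value has the gene's own median over the 6 arrays subtracted, so it tells how an array compares with the others for that gene and holds no level. The labels do not state the log base; base 2 is assumed in all folds. Differences are given as log2 ± SE with n = 2 arrays per group, and adjusted p-values are from limma, adjusted over all 19935 genes with a threshold of 0.05. The decimal steps of the numbers were used to mark genes whose uncentred values may have been at least 8 on every array. A gene with lower values on some or all arrays can also pass this check by chance, more easily the fewer such arrays it has. Marked genes are said below to lie at 8 or above. The mark was met by 54 of the 99 enzyme genes (54.5%), against 30.0% of all genes, and by 2.71% of olfactory receptor probes. Passes by chance may make up the olfactory share, so it is no measure of a floor. Among markers, 8 of 9 macrophage genes lay at 8 or above, against 1 of 6 B cell, 1 of 6 T or NK cell, 0 of 8 neutrophil, 0 of 6 mast cell, 0 of 5 dendritic cell and 4 of 8 mesothelial or fibroblast genes. In these bulk samples fewer cells of a type and less RNA per cell cannot be told apart.

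The 4 ISG15 enzymes were the most strongly raised genes of their classes with poly I:C, and each was raised less by PAM. Uba7, the ISG15 activating enzyme, stood at 1.71 and 1.62 on the poly I:C arrays, at 0.00 and 0.00 on the PAM arrays and at -0.52 and -0.56 on the control arrays. The 3 groups did not overlap, and PAM lay between poly I:C and control. Uba7 rose by 2.21 ± 0.07 with poly I:C (4.61-fold, adjusted p = 2.33e-08, limma) and by 0.54 ± 0.07 with PAM (1.45-fold, adjusted p = 0.000272). Poly I:C exceeded PAM 3.17-fold (adjusted p = 1.45e-07).

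Ube2l6, the E2 enzyme that carries ISG15, was measured at 1.96 and 1.89 on the poly I:C arrays, 0.10 and -0.10 on the PAM arrays and -0.995 and -0.95 on the control arrays. Again the groups were fully apart, in the same order. The rise was 2.90 ± 0.08 with poly I:C, or 7.44-fold (adjusted p = 1.49e-08, limma), and 0.97 ± 0.08 with PAM, or 1.96-fold (adjusted p = 2.12e-05). Between the ligands it differed 3.80-fold.

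Herc6, the ligase of the set, gave 2.24 and 2.25 on the poly I:C arrays, 0.02 and -0.02 on the PAM arrays and -1.23 and -1.18 on the control arrays. Its rise was 10.9-fold with poly I:C (3.45 ± 0.06) and 2.31-fold with PAM (1.21 ± 0.06), and the difference between the ligands was 2.24 ± 0.06 (adjusted p = 2.07e-08, limma). No other HERC gene rose with either ligand.

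Usp18, the protease that removes ISG15, had the largest change of all 99 genes. Its values were 4.11 and 4.135 on the poly I:C arrays, 0.11 and -0.11 on the PAM arrays and -1.07 and -1.19 on the control arrays. The rise with poly I:C was 38.2-fold (5.26 ± 0.09, adjusted p = 9.6e-10, limma) and that with PAM 2.19-fold (1.13 ± 0.09, adjusted p = 1.22e-05), so the ligands were 17.4-fold apart. With PAM the order of the 4 genes was another: Herc6 and Usp18 were highest, at 1.21 and 1.13 with SE of 0.06 and 0.09, Ube2l6 was below them and Uba7 lowest; neighbours in this order were not tested against each other. These folds compare changes between genes, not their levels, which the centred values do not hold. All 3 differences of each of these 4 genes passed the threshold under every alternative run on single genes, 138 values in all. A minimum of 1.5-fold and a test against a 1.2-fold change were applied to counts only and are not among these values. Uba7 with PAM, at 1.45-fold, lies below that minimum. The fit limited to genes with high uncentred values on every array did not include Uba7 and Usp18.

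**Figure D1:**
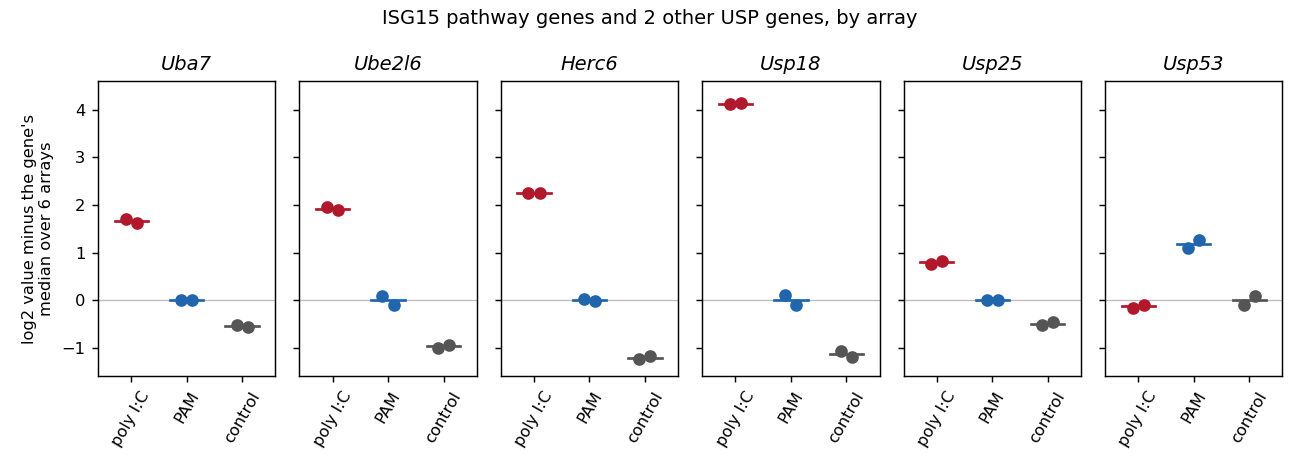
Each panel shows the log2 value of 1 gene minus its median over the 6 arrays (y axis) for poly I:C, PAM and control (x axis), with a point per array and a line at the group mean. In Uba7, Ube2l6, Herc6, Usp18 and Usp25 the poly I:C arrays are highest and the control arrays lowest, whereas Usp53 is high on the PAM arrays only.

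As a measure of how far interferon-stimulated genes outside the relay moved on the same arrays, Ifit3, an antiviral RNA-binding protein gene, rose by 6.86 with poly I:C and 2.28 with PAM. Mx1, an antiviral GTPase gene, rose by 5.65 with poly I:C and 0.34 with PAM. The other 4 listed genes of this kind that were measured rose with poly I:C by 6.12 (Ifit1), 5.33 (Rsad2), 5.20 (Irf7) and 4.17 (Oasl1), and with PAM by 2.84 (Ifit1), 1.47 (Rsad2) and 1.64 (Irf7), while the PAM difference of Oasl1, 0.27, did not pass. With poly I:C the difference of Usp18 lay within the range of these 6 genes, and those of Herc6, Ube2l6 and Uba7 lay below it. With PAM all 4 enzyme genes lay within their range. The probe that lists Isg15 also lists a second gene, so ISG15 itself was not analysed here.

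Because the ISG15 enzymes moved together, their promoters are shown. RefSeq (build GRCm38.p6) gives a window of 250 bases before and 50 bases after the annotated start for Uba7 (chr9:107975317-107975616, plus strand), Ube2l6 (chr2:84798578-84798877, plus strand) and Herc6 (chr6:57580742-57581041, plus strand); Usp18 is named only. Capitals mark each GAAA and its reverse complement TTTC, the 4 letters that recur in the core of the interferon-stimulated response element, and all 3 are written 5′ to 3′.
Uba7: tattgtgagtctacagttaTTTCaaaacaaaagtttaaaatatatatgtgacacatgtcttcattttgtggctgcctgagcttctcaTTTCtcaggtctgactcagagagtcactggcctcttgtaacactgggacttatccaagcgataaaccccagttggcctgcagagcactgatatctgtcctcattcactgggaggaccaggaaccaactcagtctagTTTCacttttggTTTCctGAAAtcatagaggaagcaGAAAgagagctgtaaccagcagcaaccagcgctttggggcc
Ube2l6: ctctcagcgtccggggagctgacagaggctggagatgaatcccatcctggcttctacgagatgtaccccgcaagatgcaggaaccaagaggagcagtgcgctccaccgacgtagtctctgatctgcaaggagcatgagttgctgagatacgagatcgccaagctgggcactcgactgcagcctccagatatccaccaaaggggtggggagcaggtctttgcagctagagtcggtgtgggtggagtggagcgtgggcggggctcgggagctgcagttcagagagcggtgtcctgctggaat
Herc6: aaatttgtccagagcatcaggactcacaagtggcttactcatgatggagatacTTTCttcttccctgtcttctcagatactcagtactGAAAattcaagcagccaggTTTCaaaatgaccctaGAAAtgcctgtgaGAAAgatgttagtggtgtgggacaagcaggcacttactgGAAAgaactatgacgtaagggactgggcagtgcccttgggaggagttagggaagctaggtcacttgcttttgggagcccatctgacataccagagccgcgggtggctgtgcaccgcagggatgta

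Uba7 and Herc6 each held 6 such marks, and 13.9% of all promoters in the table hold as many or more; Ube2l6 held 0. The full core searched was GAAANNGAAA on both strands, where matches may overlap. It was found in none of these 3 windows and in 3.44% of the 32851 promoters. Among 80 of the 99 genes with a promoter entry, 3 held it (Usp17ld, Usp17lc and Ube2dnl1), and none of the 12 with an entry that rose with poly I:C did. Among all tested genes with an entry that rose with poly I:C, 7.48% of 1939 held it, and 12 genes are too few to show a difference from that share. It was present for 28.8% of the 170 that rose at least 4-fold. The absence of a match says only that these letters are not in this window.

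Across all 99 genes, 16 rose and 24 fell with poly I:C relative to control, against 12.1% higher and 18.2% lower over all genes tested (16.2% and 24.2% of the enzyme genes). With PAM relative to control 17 rose and 14 fell (17.2% and 14.1%, against 11.0% and 14.0% over all genes). In the direct comparison of poly I:C with PAM 17 were higher and 18 lower (17.2% and 18.2%, against 12.9% and 15.8%). The median difference of the 99 genes was 0.02 with poly I:C and 0.00 with PAM, against 0.01 and 0.00 over all genes. The enzyme genes more often lay at 8 or above. Of those 54 genes 22.2% rose and 31.5% fell with poly I:C, against 21.6% and 33.2% of all genes at 8 or above, and with PAM 20.4% rose and 18.5% fell, against 20.6% and 25.3%. Without the 4 ISG15 enzymes, 12 of 95 genes rose and 24 fell with poly I:C, and 13 rose and 14 fell with PAM.

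Changes of at least 2-fold that passed were seen in 5 of the 99 genes with poly I:C (4.82% of all genes), in 3 with PAM (4.20%) and in 5 between the ligands (4.97%). With poly I:C these were Uba7, Ube2l6, Herc6, Usp18 and Usp25, with PAM Herc6, Usp18 and Usp53, and between the ligands Uba7, Ube2l6, Herc6, Usp18 and Usp53. A graded order, with poly I:C above PAM and PAM above control and all 3 differences past the threshold, was met by 5 of the 99 genes (1.70% of all genes): the 4 ISG15 enzymes and Usp25. Leaving out 1 array changed the counts with PAM most. The 14 lower genes became 5 without PAM replicate 1, 9 without PAM replicate 2 and 7 without control replicate 2, and the 17 higher genes became 11 without PAM replicate 2.

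**Figure D2:**
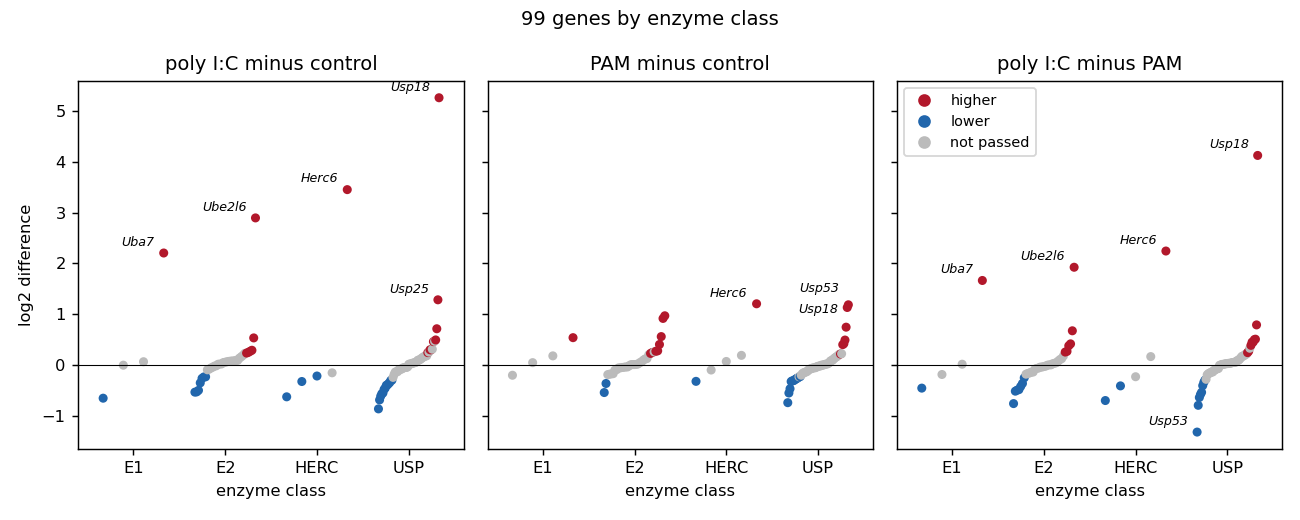
Log2 differences (y axis) of the 99 genes by enzyme class (x axis) in the 3 comparisons, each class sorted by size, with colour for genes past an adjusted p of 0.05 and names at 2-fold or more. Most genes lie near 0 in every panel, and 1 gene of each class stands far above the rest in poly I:C minus control.

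Among the other E1 genes, Uba6, a second activating enzyme for ubiquitin, moved the opposite way from Uba7. It stood at -0.42 and -0.48 on the poly I:C arrays, -0.06 and 0.06 on the PAM arrays and 0.12 and 0.28 on the control arrays, and fell by 0.65 ± 0.08 with poly I:C (adjusted p = 0.000231, limma). The PAM difference of -0.20 did not pass (95% interval -0.38 to -0.02), and the direct difference, poly I:C minus PAM, was -0.45 (adjusted p = 0.00218). Uba3, the catalytic E1 subunit for the ubiquitin-like protein NEDD8, differed by 0.00 ± 0.08 with poly I:C (95% interval -0.19 to 0.19) and 0.18 ± 0.08 with PAM. Uba1y, the Y-linked copy of the main ubiquitin E1, is read by 4 probes and passed in no comparison.

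Of the 35 E2 genes, 6 rose and 7 fell with poly I:C, and 8 rose and 2 fell with PAM. These are 17.1% and 20.0% of the class with poly I:C, against 12.1% and 18.2% of all genes, and 22.9% and 5.71% with PAM, against 11.0% and 14.0%. The class is richer in genes at 8 or above (22 of 35) than all genes are (30.0%). In the fit limited to such genes, 8 E2 genes rose and 6 fell with PAM. Shares over all genes were not counted in that fit, so the few falls with PAM are not a result about the class. The counts shifted with single arrays: with poly I:C 3 rose and 3 fell without poly I:C replicate 1, and 4 fell without poly I:C replicate 2 or control replicate 2. With PAM 4 rose without PAM replicate 1 and 5 without PAM replicate 2. Apart from Ube2l6, the gains with poly I:C were small. Ube2f, which carries NEDD8 rather than ubiquitin, had -0.04 and 0.08 on the poly I:C arrays and 0.04 and 0.05 on the PAM arrays, against -0.65 and -0.38 on the control arrays. It thus rose alike with both ligands, by 0.54 ± 0.09 with poly I:C (adjusted p = 0.002, limma) and 0.56 ± 0.09 with PAM (adjusted p = 0.0019), and the difference between them, -0.03 ± 0.09, did not pass. Ube2g2, an E2 of protein degradation at the endoplasmic reticulum, also rose with both, by 0.24 and 0.27. Ube2r2, an E2 of the cullin ligases, rose by 0.25 with poly I:C. That call was lost without control replicate 2 or poly I:C replicate 1.

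Some E2 genes moved with PAM but not with poly I:C, and the direct comparison passed for each named here. Ube2e2, a ubiquitin E2, had -0.07 and 0.07 on the poly I:C arrays, 0.85 and 0.66 on the PAM arrays and -0.19 and -0.14 on the control arrays. Only its PAM arrays were high, with a rise of 0.92 ± 0.09 (1.89-fold, adjusted p = 4.52e-05, limma), and poly I:C minus PAM was -0.75. Ube2s, which lengthens ubiquitin chains for the anaphase-promoting complex, rose by 0.41 with PAM, and both of its probes passed. Ube2d1, one of the widely used E2 enzymes, stood at 0.07 and 0.25 on the poly I:C arrays, -0.52 and -0.51 on the PAM arrays and -0.07 and 0.11 on the control arrays. Here only the PAM arrays were low. The fall with PAM was 0.54 in size (-0.54 ± 0.09, adjusted p = 0.00163), while its close relative Ube2d3 differed by 0.05 with PAM and 0.08 with poly I:C, neither of which passed.

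Other E2 genes fell with poly I:C. Ube2h, an E2 of the GID/CTLH ligase, differed by -0.53 ± 0.08 (adjusted p = 0.000903, limma), and Ube2q2, a less studied E2, by -0.53 ± 0.07 (adjusted p = 0.000466). For both genes the 2 probes moved alike and the PAM difference did not pass. The direct difference of Ube2h, -0.36, passed but not without poly I:C replicate 1 or PAM replicate 2. Ube2b, the E2 of DNA damage tolerance and histone marking, fell with both ligands: it had -0.16 and -0.11 on the poly I:C arrays and 0.02 and -0.02 on the PAM arrays, against 0.37 and 0.35 on the control arrays. The falls were -0.50 ± 0.06 with poly I:C and -0.36 ± 0.06 with PAM (adjusted p = 0.000313 and 0.00271).

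The study's question concerned genes moved in opposite directions by the 2 ligands. Among the 99 genes 0 rose with poly I:C and fell with PAM, against 1.35% of all genes, and 2 did the reverse, against 1.88% of all genes, so both counts are near the background. Ube2j1, an E2 anchored in the endoplasmic reticulum that serves the removal of misfolded proteins, stood at -0.20 and -0.26 on the poly I:C arrays, 0.26 and 0.24 on the PAM arrays and -0.07 and 0.07 on the control arrays. Its differences were -0.23 ± 0.07 with poly I:C (adjusted p = 0.0389, limma), 0.25 ± 0.07 with PAM (adjusted p = 0.0337) and -0.48 ± 0.07 between the ligands (adjusted p = 0.000829). Ube2o, a large enzyme that joins E2 and ligase activity, gave -0.20 and -0.25 on the poly I:C arrays, 0.34 and 0.22 on the PAM arrays and -0.04 and 0.04 on the control arrays. Its differences were -0.23 ± 0.07 with poly I:C, 0.28 ± 0.07 with PAM and -0.51 ± 0.07 between the ligands (adjusted p = 0.0385, 0.0178 and 0.000526, limma). In both genes the direct difference passed under every alternative run on single genes. At 1.4-fold for Ube2j1 and 1.43-fold for Ube2o it lies below the 1.5-fold minimum, which was applied to counts only. The calls against control are near the threshold: with the replicate number as a block the poly I:C calls ended (adjusted p = 0.0524 for Ube2j1 and 0.0502 for Ube2o), and each was lost in 5 of the 6 fits that left out an array. The PAM call of Ube2j1 was also lost in 5 of these fits, and that of Ube2o without control replicate 1 or PAM replicate 1.

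Probes of a gene did not always move together. Of the 3 probes of Ube2l3, the E2 that hands ubiquitin to ligases such as the linear chain complex, 2 rose with poly I:C by 0.44 and 0.47, while the third differed by -0.03 and alone fell with PAM (-0.30, adjusted p = 0.0137, limma). Of the 3 probes of Ube2v1, which pairs with Ube2n to build signalling chains, 2 rose with poly I:C by 0.36 and 0.35 and 1 differed by 0.11 without passing. For Ube2v2, the other partner of Ube2n, 1 probe fell by 0.63 with poly I:C and the other 2 differed by -0.07. The gene means (0.29 for Ube2l3, 0.27 for Ube2v1 and -0.26 for Ube2v2) all passed, that of Ube2v1 not without either poly I:C array, and near-identical gene copies may share these probes, so they are uncertain. Ube2n itself differed by 0.08 with poly I:C and 0.26 with PAM (95% interval 0.06 to 0.46, adjusted p = 0.0577), which did not pass.

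Of the 5 HERC genes 1 (Herc6) rose and 3 fell with poly I:C, and 1 (Herc6) rose and 1 fell with PAM. Over all genes 12.1% rose and 18.2% fell with poly I:C, and 11.0% and 14.0% with PAM, but 5 genes allow no reading of a share. Herc2, a giant ligase of the DNA damage response, had -0.61 and -0.63 on the poly I:C arrays, 0.04 and 0.11 on the PAM arrays and 0.03 and -0.02 on the control arrays. Only its poly I:C arrays were low, with a fall of -0.62 ± 0.07 with poly I:C (adjusted p = 8.38e-05, limma) and no call with PAM. Herc4 (-0.32) and Herc3 (-0.21), 2 smaller relatives, also fell with poly I:C. The Herc3 call (adjusted p = 0.0485) was lost under the replicate block and in each fit without 1 array, and that of Herc4 without poly I:C replicate 2. Herc1, the other giant member, fell with PAM by 0.32 ± 0.07 in size (-0.32, adjusted p = 0.00674) and was not called without PAM replicate 1.

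Of the 55 USP genes 8 rose and 13 fell with poly I:C, and 7 rose and 11 fell with PAM. These are 14.5% and 23.6% of the class with poly I:C, against 12.1% and 18.2% of all genes, and 12.7% and 20.0% with PAM, against 11.0% and 14.0%. The 11 falls with PAM became 3 without PAM replicate 1, 3 without control replicate 2 and 6 without PAM replicate 2, and the 7 rises became 4 without PAM replicate 2. Usp25, a deubiquitinase known to act on Toll-like and interleukin receptor signalling adaptors, followed Usp18 at a smaller scale. Its values were 0.77 and 0.81 on the poly I:C arrays, 0.00 and 0.00 on the PAM arrays and -0.52 and -0.47 on the control arrays. It rose 2.44-fold with poly I:C (1.29 ± 0.06, adjusted p = 6.52e-07, limma) and 1.41-fold with PAM (0.49 ± 0.06, adjusted p = 0.000401), and its groups did not overlap. Usp42, a deubiquitinase linked to p53, rose by 0.72 ± 0.08 with poly I:C (adjusted p = 0.000148), and Usp15, which acts on TGF-beta receptor complexes and on Trim25 in RNA sensing, by 0.50 ± 0.07 (adjusted p = 0.000341). Neither passed with PAM, and the direct differences, poly I:C minus PAM, were 0.50 for Usp42 and 0.51 for Usp15. Usp3, a histone deubiquitinase, rose with both ligands, by 0.46 and 0.42, as did Usp16, another one, by 0.30 and 0.40.

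The largest USP falls with poly I:C were those of Usp34, Usp9x, Usp48, Usp46 and Usp6nl. Usp34, an axin deubiquitinase of the Wnt pathway, had -0.78 and -0.80 on the poly I:C arrays, -0.04 and 0.04 on the PAM arrays and 0.06 and 0.08 on the control arrays. Its fall was 1.81-fold with poly I:C (-0.86 ± 0.07, adjusted p = 1.03e-05, limma), and the PAM difference of -0.07 did not pass. Usp9x, an X-linked deubiquitinase of many substrates, had -0.59 and -0.68 on the poly I:C arrays, 0.01 and -0.01 on the PAM arrays and 0.01 and 0.09 on the control arrays. Only its poly I:C arrays were low, by -0.68 ± 0.07 against control (adjusted p = 5.74e-05). The same arrays were low for Usp46, which acts together with a WD-repeat partner (-0.56, adjusted p = 0.00114), Usp14, a deubiquitinase bound to the proteasome (-0.48 ± 0.06), and Usp5, which takes apart free ubiquitin chains (-0.39 ± 0.06). Poly I:C was also below PAM in Usp34, Usp9x, Usp46, Usp14 and Usp5, with adjusted p-values between 1.67e-05 and 0.00336. Usp48 fell with both ligands, by -0.61 with poly I:C and -0.46 with PAM, and so did the Rab regulator gene Usp6nl, by -0.55 and -0.74. On the same arrays 3 of 8 mesothelial or fibroblast markers fell with poly I:C (Col3a1 by -0.69, Upk3b by -0.40 and Col1a1 by -0.36). Their summed centred log2 values lay between -1.41 and -0.89 on the poly I:C arrays, between 0.72 and 0.81 on the PAM arrays and between -0.45 and 2.01 on the control arrays. Of 9 macrophage markers 2 rose with poly I:C (Fcgr1 by 2.65 and Mertk by 0.23) and 4 fell (Itgam by -1.49, Cd14 by -1.29, Adgre1 by -0.97 and Gata6 by -0.67). Their sums, in which these opposite changes partly cancel, lay between -0.60 and -0.53 on the poly I:C arrays, between 1.29 and 1.52 on the PAM arrays and between 0.86 and 1.45 on the control arrays. Of the other lists, the B cell markers Ms4a1 (0.44) and Cd79b (0.36) and the dendritic cell marker Ccr7 (0.42) rose with poly I:C, and the B cell marker Cd22 fell (-0.71). The part of any of these in the enzyme changes was not tested.

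PAM had its own largest USP gene. Usp53, a family member found at cell junctions, stood at -0.16 and -0.09 on the poly I:C arrays, 1.10 and 1.27 on the PAM arrays and -0.09 and 0.09 on the control arrays. It rose 2.28-fold with PAM (1.19 ± 0.09, adjusted p = 9.98e-06, limma), while with poly I:C it differed by -0.13 ± 0.09 without passing, and poly I:C lay 2.49-fold below PAM (adjusted p = 4.1e-06). Usp4, a close relative of Usp15, fell with PAM by -0.55 ± 0.07 (adjusted p = 0.000421) and not with poly I:C (-0.09). Poly I:C was above PAM in both Usp4 and Usp15, by 0.45 and 0.51. Usp17ld, of a family of near-identical deubiquitinase genes and so uncertain, rose by 0.75 ± 0.17 with PAM, a call that ended without PAM replicate 2. With poly I:C it differed by 0.47 ± 0.17 (adjusted p = 0.0627, limma), which passed with the replicate number as a block (adjusted p = 0.0346), and poly I:C minus PAM did not pass (-0.28, adjusted p = 0.287). Usp7, a regulator of Mdm2, differed by -0.05 with poly I:C (95% interval -0.20 to 0.09) and 0.08 with PAM (-0.06 to 0.23). Beside these PAM values, 2 of 8 neutrophil markers rose (S100a8 by 2.04 and Camp by 0.64) and 1, Cxcr2, fell (-0.40); Cxcr2 fell with poly I:C too (-0.32). Their summed centred log2 values lay between 2.25 and 2.43 on the PAM arrays, between -0.39 and 0.01 on the poly I:C arrays and between -0.30 and 0.48 on the control arrays. The other 5, Elane, Ltf, Ly6g, Mpo and Ngp, differed by -0.05 to 0.05 with PAM, and none of the 8 had values of at least 8 on every array. Of other lists, the fibroblast marker Dcn (0.95), the B cell markers Cd79b (0.62) and Ms4a1 (0.51) and the dendritic cell marker Ccr7 (0.40) rose with PAM, and the B cell marker Cd22 (-0.83) and the mesothelial marker Upk3b (-0.45) fell. Of 9 macrophage markers 3 rose with PAM (Cd14 by 2.39, Adgre1 by 1.38 and Csf1r by 0.74) and 4 fell (Fcgr1 by -1.72, Mertk by -1.23, Gata6 by -0.87 and Itgam by -0.48). Their part in the results was not tested.

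**Figure D3:**
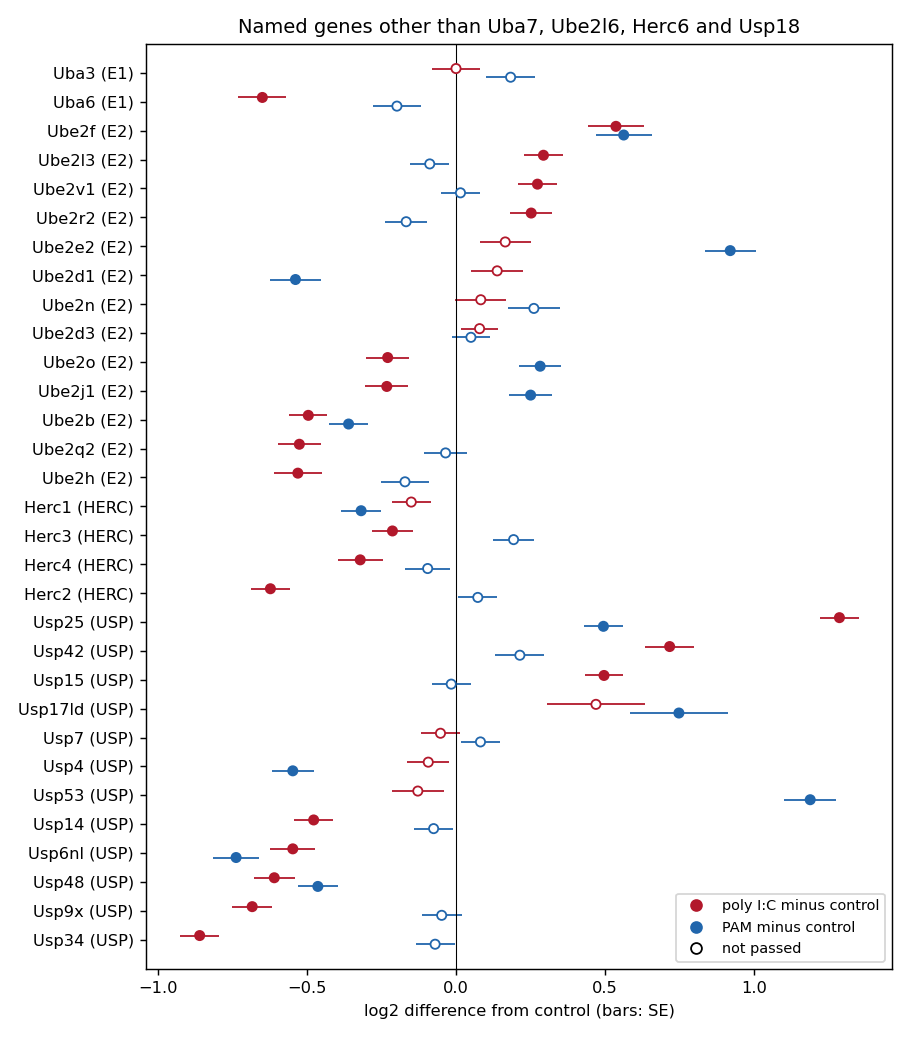
Log2 difference from control (x axis, bars are SE) for poly I:C and PAM in 31 named genes other than the 4 ISG15 enzymes (y axis, class in brackets); filled points passed an adjusted p of 0.05. Usp25 lies farthest right for poly I:C and Usp53 and Ube2e2 for PAM, Usp34 lies farthest left, and Ube2o and Ube2j1 have their filled points on opposite sides of 0.

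Beyond the 99 genes, other parts of the machinery moved in both directions, as counted here by list. The shares over all genes to set these counts against are 12.1% higher and 18.2% lower with poly I:C, and 11.0% and 14.0% with PAM, and lists this short allow no reading of a share. Of 7 measured modifiers 2 rose with poly I:C, Urm1 by 0.94 ± 0.08 and Sumo3 by 0.61 ± 0.09, and Urm1 rose with PAM too (0.31). Of 13 other E1, E2-like and ligase genes 1 rose and 5 fell with poly I:C, and 1 rose and 2 fell with PAM. The ligase genes Ube3b (-0.68), Ube4b (-0.56) and Ube3c (-0.42) and the NEDD8 factor gene Dcun1d1 (-0.59) fell with poly I:C. Ube3b also fell with PAM, near the threshold (-0.21, adjusted p = 0.0495, limma). Atg7, the E1-like enzyme of autophagy, fell with both ligands too, by -0.36 with poly I:C and -0.65 with PAM.

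Of 29 deubiquitinases outside the USP family, 8 rose and 6 fell with poly I:C, and 7 rose and 4 fell with PAM, where 12.1% and 18.2% of all genes did so with poly I:C and 11.0% and 14.0% with PAM. Uchl1, a ubiquitin hydrolase best known from neurons, rose 2.00 ± 0.07 on the log2 scale with PAM (adjusted p = 7.76e-08, limma) and differed by -0.02 with poly I:C. Tnfaip3, which encodes the NF-kB brake A20, rose with both ligands, by 1.02 with poly I:C and 1.85 with PAM, and poly I:C minus PAM was -0.83 (adjusted p = 4.26e-05). Otud1, an inhibitor of inflammatory signalling, fell with PAM (-0.93) and differed by 0.05 with poly I:C. Brcc3 (0.76) and Vcpip1 (0.71) rose and Mpnd (-0.73), Otud6b (-0.70) and Atxn3 (-0.69) fell with poly I:C. Of these, Atxn3 fell with PAM as well (-0.41). Otulin, which removes linear chains, also fell with both, by -0.48 and -0.47. Of the 7 SUMO and NEDD8 proteases 1 rose (Senp1, 0.53) and 3 fell with poly I:C, among them Senp8 (-0.57). With PAM 2 fell, Senp8 (-0.45) and Senp2 (-0.24).

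In all, 56 of the 99 genes passed in at least 1 of the 3 comparisons and 43 in none, where 41.9% of all genes passed in at least 1. Of the 56, 9 rose with both ligands (4.99% of all genes) and 6 fell with both (8.47%). With poly I:C alone called, 7 rose (5.80%) and 16 fell (7.90%), and with PAM alone called, 6 rose (4.18%) and 8 fell (4.12%). The other 4 were the 2 moved in opposite directions and 2 that passed only between the ligands (3.24% of all genes). A call with 1 ligand only does not show that the ligands differed unless the direct comparison passed. The 2 groups treated were each set against the same control arrays.

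**Figure D4:**
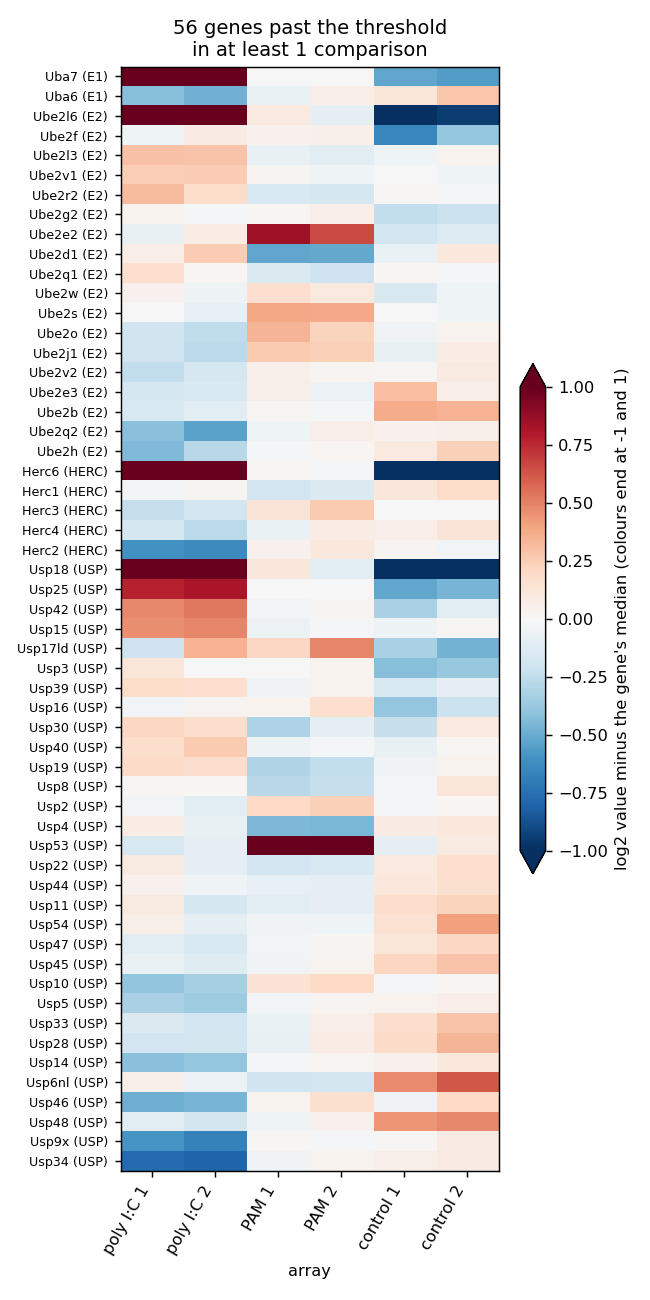
Log2 value minus the gene's median over 6 arrays (colour, ending at -1 and 1) for the 56 genes past the threshold in at least 1 comparison (rows, by class and by their poly I:C difference) on the 6 arrays (columns: poly I:C, PAM, control). Uba7, Ube2l6, Herc6 and Usp18 are dark red on both poly I:C arrays, and Usp53 on both PAM arrays.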

How the data were processed

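The 6 RNA samples became biotin-labelled cRNA on Affymetrix arrays, per the labels' protocols. The authors deposited log values, read here as log2 although the base is not stated, for 28815 probes, with each probe's median over the 6 arrays already subtracted; how they were summarized and normalized is not given in the sources used here. Array medians lay between -0.00491 and 0.00721. The platform annotation gave 21780 probes 1 symbol; 1605 with several and 5430 with none were not used, among them 6 probes that list an enzyme gene beside another gene. Probes of a gene were averaged (13 of the 99 genes have several).

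One mean per group was fitted over all 6 arrays with limma 3.58.1 in R 4.3.3 (lmFit, eBayes without trend, 3 residual and 5.68 prior degrees of freedom). Benjamini-Hochberg adjustment was made within each comparison. The fit was also run on simulated data with independent noise per gene and array. Such data hold no shared array effects, so they cannot show how well these arrays support the calls. The median SE over all genes was 0.075. Genes at 8 or above were marked from differences between arrays that are whole multiples of the single-precision step at that size, within 0.01 of a step. Lower values have finer steps and can meet this rule by chance, so the mark does not establish the level of a single gene. Tables and figures used Python 3.11.15, numpy 2.4.6, pandas 2.3.3 and matplotlib 3.10.9. Named genes were the 4 ISG15 enzymes, a list of central enzymes, those at 2-fold or more, those called in opposite directions, and up to 3 per class, comparison and direction; the other USP, E2 and list genes printed were chosen after their values were seen. The members and lists were chosen with earlier results of these data known.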

Additional observations from a re-analysis of the deposited data

Results flagged for a closer look

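Ube2j1 and Ube2o drew attention because they were called in opposite directions from control with poly I:C and PAM. The direct comparison of poly I:C with PAM passed as well. Their calls against control lay near the threshold, and the poly I:C calls ended with the replicate number as a block. These 2 of the 99 genes are near the 1.88% of all genes called this way. The log2 difference between the ligands was -0.481 for Ube2j1 and -0.511 for Ube2o, each lower on both poly I:C arrays than on both PAM arrays. Groups of 2 arrays are too small for a test of single outlying arrays.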

How the results depend on the processing

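Of 90 recomputed counts of higher or lower genes, 74 stayed within 1.5 times the reported count. Shares over all genes were not counted under these alternatives. A lower count below is therefore not a result about the enzyme genes in particular. A minimum of 1.5-fold left 6 higher and 5 lower genes with poly I:C, 6 higher and 1 lower with PAM, and 6 higher and 5 lower between the ligands. Limma's test against a 1.2-fold change (treat) left 7 and 11 with poly I:C, 7 and 2 with PAM, and 7 and 9 between the ligands. Leaving out 1 array gave 12 to 17 higher and 17 to 22 lower genes with poly I:C, 11 to 20 and 5 to 15 with PAM, and 13 to 19 and 15 to 19 between the ligands. The 1.5-fold minimum and the test against a 1.2-fold change were applied to counts only, not to single genes. Of 66 calls of named genes 54 held under every other alternative run on them. The remaining 12 were lost in at least 1 fit without an array, none above 0.75 in size, and no called direction reversed. Deviations of same-numbered arrays correlated between groups at -0.073, 0.155 and -0.01, so the replicate numbers do not show a pairing. With the replicate block 18 genes rose and 20 fell with poly I:C, 15 rose and 13 fell with PAM, and in the direct comparison 18 were higher and 18 lower. The number of arrays limits precision, and signal over background is unknown.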
